A study of Mus musculus with 11 samples.

Results

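The unfolded protein and ATF4 stress response was followed through 40 genes, all of which were found by symbol among the 48299 genes of the deposited table of raw counts. They form 2 arms. The ATF4 arm holds 16 genes: Atf4 itself, partner and feedback regulators, and enzymes and transporters of amino acid supply. The endoplasmic reticulum (ER) arm holds 24 genes: stress sensors, chaperones, disulfide isomerases, and genes of ER-associated degradation (ERAD) and of the translocon. All 40 passed the filter on low counts, which kept 14346 genes, so none is left out below.

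In the unfolded protein response, unfolded proteins in the ER activate the sensors IRE1 (encoded by Ern1), PERK (Eif2ak3) and ATF6. IRE1 splices the Xbp1 mRNA, and XBP1 and ATF6 switch on chaperone and ERAD genes through promoter elements. PERK phosphorylates the translation factor eIF2, which lowers general translation and raises that of the Atf4 mRNA. Other eIF2 kinases do the same under other stresses, among them a shortage of amino acids, so ATF4 targets can rise without an ER signal. Messenger RNA levels report neither Xbp1 splicing nor ATF4 protein.

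The cells were WFU3, a mouse prostate epithelial stem cell line kept in culture dishes, and mRNA of 11 libraries was sequenced. Every line had been transduced with lentiviral hairpins (short RNAs that silence a gene). These targeted Map3k7, which encodes the kinase TAK1, or Chd1, which encodes a chromatin remodeller, or both, or were control hairpins alone. The shControl group (n = 3) held an unnumbered line with control hairpins in a puromycin and a neomycin vector at passage 30 (replicate 1). It also held the clones numbered 4 and 5 at passage 52 (replicates 2 and 3, lines 4 and 5 in the plots). By their labels, these clones and all libraries of the other groups carried a hairpin labelled GFP and a hairpin labelled puro. Replicate 1 of shControl alone had no GFP label. Map3k7 hairpins were those labelled GFP, and Chd1 hairpins those labelled puro. The shMap3k7 group (n = 2) held clone 1 at passage 49 and clone 7 at passage 47, with a control hairpin in place of the Chd1 hairpin. Both shChd1 libraries (n = 2) were made in control clone 4, with construct 96526 at passage 52 and construct 96528 at passage 50. The shDouble group (n = 4) held clone 1 with construct 96526 and with 96528 at passage 49, then clone 7 with the same constructs at passage 48. The Map3k7 knockdown is therefore seen in 2 clones and the single Chd1 knockdown in 1. Nothing in the labels says that libraries came from separate cultures, so p-values measure only the spread between these libraries.

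Total counts ran from 14132371 to 23163709 per library, and the 40 genes took 0.670% to 0.880% of them. Map3k7 was at 31.0% of its control level in shMap3k7 and 30.7% in shDouble, while Chd1 was at 72.6% in shChd1 and 91.3% in shDouble. Against the shMap3k7 library of its own clone, Chd1 was lower in all 4 shDouble libraries (198 and 162 against 221 CPM, TMM-scaled counts normalised to library size, in clone 1, and 194 and 189.9 against 238 in clone 7). The summed level of 9 epithelial markers was 4212 to 10533 CPM in shControl, 11092 to 11266 in shMap3k7, 10863 to 11431 in shDouble and 2228 to 2542 in shChd1. Not every marker followed the sum. Against shControl, 6 of the 9 had a positive log2 fold change in shMap3k7 and 3 a negative one (lowest -6.25). In shDouble 5 were positive and 4 negative (lowest -5.40). The basal marker Trp63 was at 5.17 to 12.1 CPM in shControl, 0.521 to 2.34 in the libraries of the Map3k7 clones and 18.5 and 20.9 in shChd1. The prostate secretory marker Pbsn was at 0 in all 11 libraries. The summed level of 8 fibroblast markers was 26.3 to 99.7 CPM in shControl, 127 to 134 in shChd1 and 5.35 to 10.7 in the libraries of the Map3k7 clones; 5 endothelial markers summed to 39.3 CPM in shControl replicate 1 and at most 1.88 outside shControl. Most of the shChd1 fibroblast sum was Col3a1 (91.0 and 87.2 CPM), while Col1a1 was lower there than in any control (2.36 and 2.02 against 2.86 to 12.7). The part of these markers in the results below was not tested.

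Chromosomes also differed between the lines. In the Map3k7 clones the median gene of chromosome 19 lay 0.27 to 0.48 above the control mean on the log2 scale, and this chromosome carries Psat1, Slc3a2 and Syvn1. Clone 1 had a median of 0.30 to 0.32 on chromosome 4 (Sesn2, Sec61b). Clone 7 had -0.39 to -0.37 on chromosome 7 (Atf5, Nupr1, Ppp1r15a), 0.21 to 0.22 on chromosome 8 (Slc7a5, Calr, Herpud1) and -0.24 to -0.19 on chromosome 16 (Dnajb11, Sdf2l1). Control clone 4 and the shChd1 libraries made in it had medians of -0.14, -0.21 and -0.22 on chromosome 10 (Ddit3, Shmt2, Hsp90b1) and of -0.15, -0.10 and -0.11 on chromosome 16. The part of these shifts in the values of the genes named was not tested.

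The arms are known for different promoter elements, and RefSeq start-site windows (GRCm38.p6, 250 bases before to 50 after the start) were available for 35 of the 40 genes. The C/EBP-ATF response element bound by ATF4 was searched as TGATGNAA on both strands. It stood in 33.3% of the windows of the ATF4 arm (5 of 15: Asns, Chac1, Nupr1, Slc7a11 and Trib3), in 5% of those of the ER arm (Herpud1, 1 of 20), and in 4.51% of the windows of all 27025 genes. These stretches are shown because the genes that carry the element did not move alike. They read 5′ to 3′ along the gene's strand, with the element in capitals (TTNCATCA is its other strand).
Asns (chr6:7693210-7693262, minus strand): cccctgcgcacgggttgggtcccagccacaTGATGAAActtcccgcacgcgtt
Chac1 (chr2:119351019-119351086, plus strand): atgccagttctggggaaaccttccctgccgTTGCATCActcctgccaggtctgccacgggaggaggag
Nupr1 (chr7:126625543-126625610, minus strand): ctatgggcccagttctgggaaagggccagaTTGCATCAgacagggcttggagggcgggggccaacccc
Slc7a11 (chr3:50443642-50443709, minus strand): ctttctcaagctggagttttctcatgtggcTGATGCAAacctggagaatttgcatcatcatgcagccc
Herpud1 (chr8:94386287-94386354, plus strand): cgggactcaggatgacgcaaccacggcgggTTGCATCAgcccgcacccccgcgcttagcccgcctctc
The Slc7a11 stretch holds a second copy on the other strand, in lower case.

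The ER stress response element, bound by ATF6 and XBP1 together with NF-Y, was searched on both strands as CCAAT and CCACG with 9 bases between them. It stood in 40% of the windows of the ER arm (8 of 20: Hspa5, Hsp90b1, Calr, Canx, Dnajc3, Creld2, Pdia6 and Syvn1), in 0 of 15 of the ATF4 arm, and in 0.137% of all windows (37 genes). A further element, TGACGTGG on either strand, stood in 0 windows of either arm and in 0.714% of all. The stretches of 4 abundant chaperones are shown, again with the element in capitals (CGTGG, 9 bases, ATTGG is its other strand).
Hspa5 (chr2:34771995-34772073, plus strand): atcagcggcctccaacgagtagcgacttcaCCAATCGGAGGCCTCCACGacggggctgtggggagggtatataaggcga
Hsp90b1 (chr10:86705608-86705686, minus strand): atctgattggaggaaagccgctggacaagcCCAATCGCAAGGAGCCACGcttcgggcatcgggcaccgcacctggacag
Calr (chr8:84847045-84847123, minus strand): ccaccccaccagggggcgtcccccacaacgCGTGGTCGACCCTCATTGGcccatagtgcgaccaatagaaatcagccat
Canx (chr11:50325770-50325848, minus strand): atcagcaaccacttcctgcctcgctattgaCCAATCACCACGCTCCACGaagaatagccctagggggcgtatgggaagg
A match describes these letters and is not a measured binding site.

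Levels spanned a wide range. Per kilobase of exon sequence in the shControl mean, the chaperone Calr (269.6 CPM per kb), the isomerase Pdia3 (223) and the chaperones Hsp90b1 (204) and Hspa5 (196) stood highest. Phgdh (176) and Atf4 (108) led the ATF4 arm. The lowest were the cystine transporter Slc7a11 (2.08), the transcription factor Ddit3 (2.89), the sensor Atf6 (2.93) and Chac1 (3.49).

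**Figure D1:**
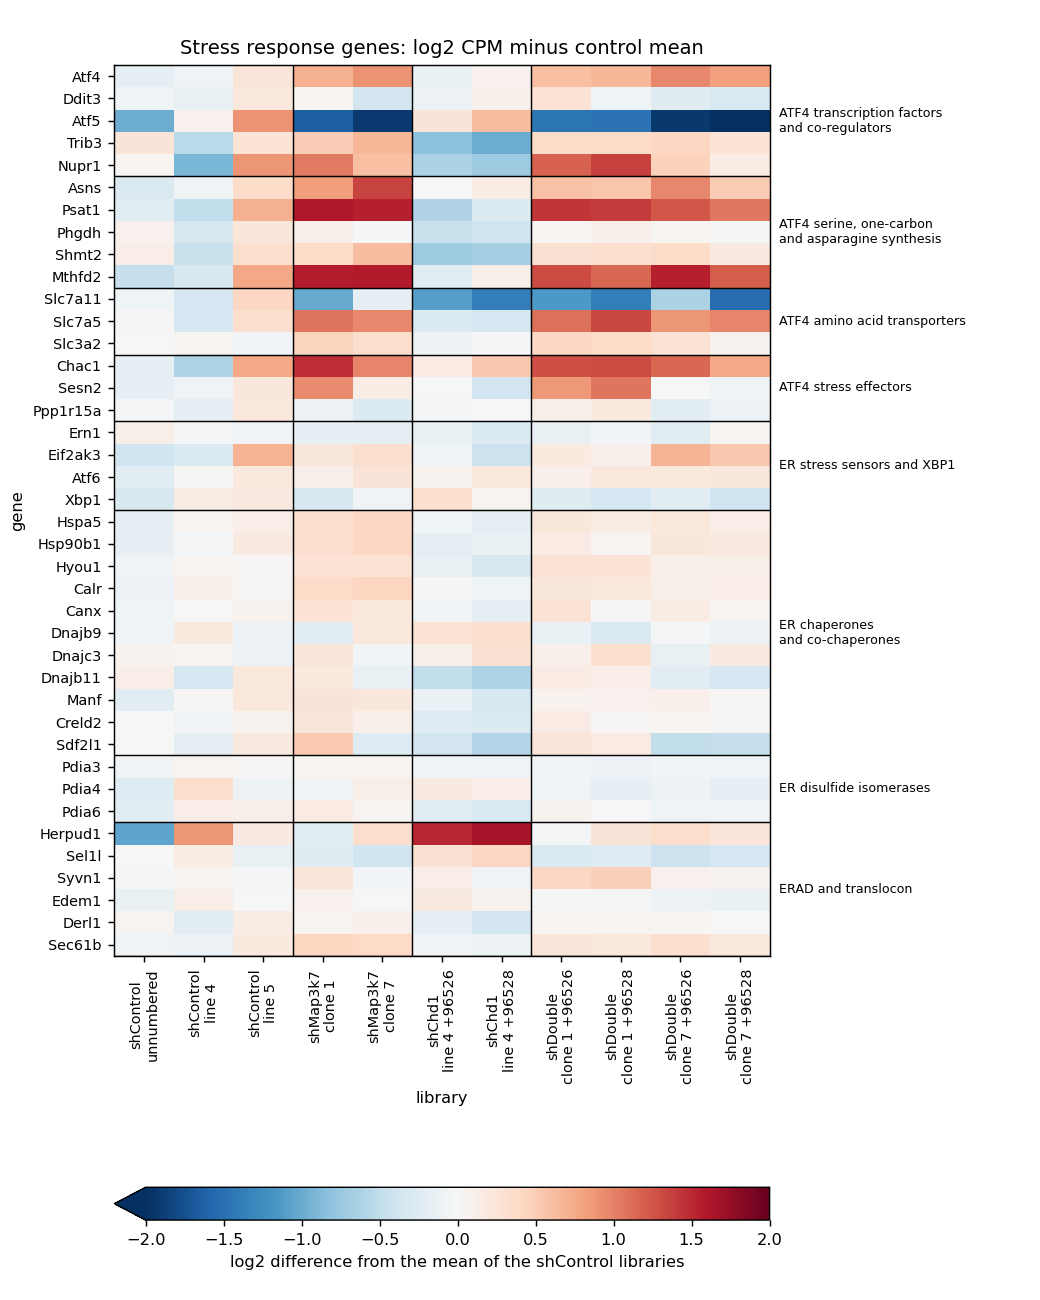
Each cell is the log2 CPM of a gene (rows, by role) in a library (columns) less the mean log2 CPM of the 3 shControl libraries, with values under -2 drawn in the darkest blue. Mthfd2, Psat1 and Slc7a5 are red in all 6 libraries of the Map3k7 clones, Atf5 is blue there, Herpud1 is red in both shChd1 libraries, and most rows of the ER arm are pale.

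The first comparison, shMap3k7 against shControl, set the Map3k7 clones without a Chd1 hairpin against the control lines. Hairpin and clone cannot be told apart in it, nor in any other comparison of the Map3k7 clones with other lines. In these cells Atf4, the aminotransferase Psat1, the mitochondrial folate enzyme Mthfd2, asparagine synthetase Asns and the amino acid transporter subunits Slc7a5 and Slc3a2 were higher by 1.32-fold to 2.79-fold. Of the ER arm, the chaperones Hspa5, Hsp90b1 and Calr and the translocon subunit Sec61b were higher by 1.29-fold to 1.33-fold. Over 18 alternative settings Calr kept its call in 14, Sec61b in 8, Hspa5 in 7 and Hsp90b1 in 6. Atf5, a stress transcription factor related to ATF4, was lower, at 25.7% of its control mean. Calls used edgeR's quasi-likelihood test at a Benjamini-Hochberg adjusted p under 0.05 over all genes tested. By it 11 of the 40 genes were called, 10 higher and 1 lower, where 11.9% of all genes were called (4.86% higher and 7.08% lower). The ATF4 arm gave 6 higher and 1 lower of 16, the ER arm 4 higher and 0 lower of 24.

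Atf4 (chr15:80255184-80257541, plus strand) stood at 225, 241 and 301 CPM in shControl replicates 1 to 3, 417 and 471 in shMap3k7, 231 and 268 in shChd1, and 385, 401, 493 and 446 in shDouble. All 6 libraries of the Map3k7 clones lay above all 5 others. In bulk libraries more RNA per cell and more expressing cells cannot be told apart. The log2 fold change in shMap3k7 was 0.80 ± 0.15 (SE; adjusted p = 0.0097).

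Psat1 (chr19:15904678-15947337, minus strand), the aminotransferase of serine synthesis, measured 145, 120.3 and 277 CPM in shControl, 511 and 496 in shMap3k7, 112 and 139 in shChd1, and 453, 444, 400.1 and 351 in shDouble. Its log2 fold change in shMap3k7 was 1.48 ± 0.28 (adjusted p = 0.0109). Mthfd2 (chr6:83305691-83325908, minus strand), of the mitochondrial one-carbon pathway, measured 27.8, 31.0 and 66.1 CPM in shControl, 114 and 116 in shMap3k7, 33.2 and 41.7 in shChd1, and 94.9, 85.7, 113 and 88.9 in shDouble (1.46 ± 0.30, adjusted p = 0.0152). For both genes shControl replicate 3 was the highest of the controls and still below every library of the Map3k7 clones.

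Asns (chr6:7675169-7693254, minus strand) measured 63.7, 74.3 and 101 CPM in shControl, 139.6 and 201 in shMap3k7, 78.3 and 86.7 in shChd1, and 118, 115, 153 and 112 in shDouble. Its shMap3k7 difference was 1.09 ± 0.21 on the log2 scale (adjusted p = 0.0121). Slc7a5 (chr8:121881150-121907694, minus strand), the large neutral amino acid transporter, measured 96.0, 74.2 and 119 CPM in shControl, 199 and 184 in shMap3k7, 77.2 and 74.2 in shChd1, and 203, 240.3, 174 and 186 in shDouble (0.99 ± 0.18, adjusted p = 0.010). Neither gene overlapped between the libraries of the Map3k7 clones and the rest.

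Slc3a2, the shared heavy chain of Slc7a5 and Slc7a11, changed less: 163, 169 and 156 CPM in shControl, 222 and 209 in shMap3k7, 152 and 159 in shChd1, and 218, 209, 199 and 172 in shDouble. Its difference in shMap3k7 was 0.40 ± 0.11 on the log2 scale (adjusted p = 0.0367), beside the chromosome 19 medians above of 0.45 in clone 1 and 0.29 in clone 7.

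Atf5 (chr7:44812256-44816658, minus strand) went the other way. It measured 10.4, 21.7 and 38.4 CPM in shControl, 6.63 and 5.43 in shMap3k7, 24.6 and 31.8 in shChd1, and 7.56, 7.39, 5.36 and 4.46 in shDouble. Every library of the Map3k7 clones was below every other library, although the controls alone spanned more than their mean of 23.5 CPM. The shMap3k7 difference was -1.96 ± 0.47 on the log2 scale (adjusted p = 0.0257).

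Of the other ATF4 arm genes in shMap3k7, none passed. Chac1, a glutathione-degrading enzyme, had a log2 fold change of 1.12 ± 0.36 (adjusted p = 0.0652), Trib3, a pseudokinase that feeds back on ATF4, 0.54 ± 0.20, and Shmt2, the mitochondrial serine hydroxymethyltransferase, 0.47 ± 0.18. Nupr1, a small stress-induced chromatin protein, stood at 0.66 ± 0.46 and Sesn2, an inhibitor of mTORC1 signalling, at 0.59 ± 0.35. Phgdh, the first enzyme of serine synthesis and the most abundant gene of the arm per length, stood at 0.03 ± 0.14: it measured 456, 344 and 509.8 CPM in shControl, 469 and 425 in shMap3k7, 316 and 326 in shChd1, and 445, 462, 442 and 425 in shDouble. Ddit3, which encodes the pro-apoptotic factor CHOP, was between 3.84 and 6.01 CPM in all 11 libraries and its groups overlapped (-0.14 ± 0.25). Ppp1r15a, which directs a phosphatase to eIF2 and ends the signal, stood at -0.20 ± 0.16.

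**Figure D2:**
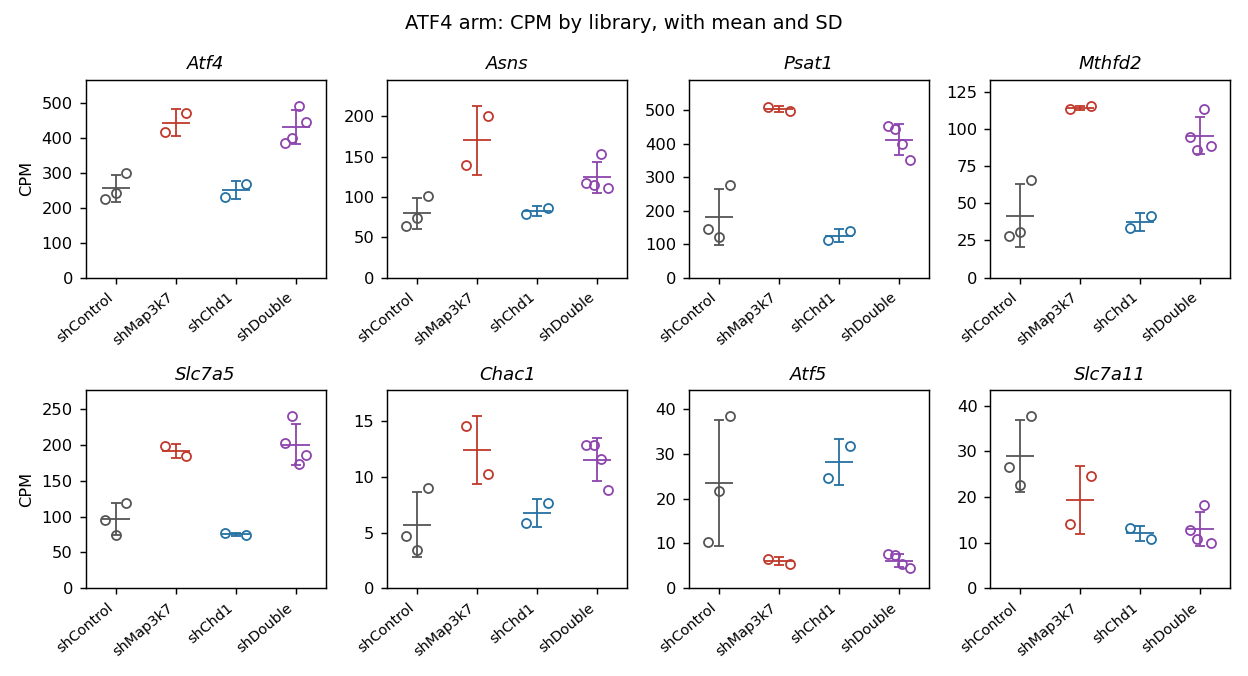
TMM-scaled CPM of 8 genes of the ATF4 arm in each library (open circles), with the mean (horizontal line) and SD (error bar) of each group, on linear axes that start at 0. Atf4, Asns, Psat1, Mthfd2 and Slc7a5 are higher in every shMap3k7 and shDouble library than in any shControl or shChd1 library, Atf5 is lower there, and Slc7a11 has its lowest means in shChd1 and shDouble.

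In the ER arm the 4 called differences were small. Hspa5, which encodes the master chaperone BiP, measured 729, 855 and 899 CPM in shControl, 1039 and 1094 in shMap3k7, 779 and 721 in shChd1, and 963, 912, 955 and 900.3 in shDouble. Libraries of the Map3k7 clones lay above all others, by little in the case of shDouble replicate 4 against shControl replicate 3. The log2 fold change in shMap3k7 was 0.37 ± 0.10 (adjusted p = 0.0366).

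Calr, a lectin chaperone of glycoproteins, measured 713, 834 and 783 CPM in shControl, 1010.1 and 1044 in shMap3k7, 786 and 728 in shChd1, and 911, 899.9, 839.8 and 848 in shDouble (0.40 ± 0.09 in shMap3k7, adjusted p = 0.0183). Sec61b, a subunit of the channel through which proteins enter the ER, measured 63.9, 62.0 and 76.8 CPM in shControl, 90.3 and 88.9 in shMap3k7, 64.7 and 62.9 in shChd1, and 79.5, 78.0, 84.8 and 77.6 in shDouble (0.41 ± 0.10, adjusted p = 0.0319). Both were higher in the 6 libraries of the Map3k7 clones than in the other 5. Hsp90b1, the ER form of HSP90, rose by 0.37 ± 0.10 in shMap3k7 (adjusted p = 0.0412), where its 1032 and 1088 CPM lay above the 733 to 924 of shControl.

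The remaining 20 genes of the ER arm did not pass in shMap3k7. Among chaperones and their partners, Hyou1 stood at 0.28 ± 0.10, Canx at 0.24 ± 0.10, Manf at 0.23 ± 0.12 and Creld2 at 0.17 ± 0.10, while Dnajb9, Dnajc3, Dnajb11 and Sdf2l1 lay between -0.00 and 0.18. The disulfide isomerases Pdia3, Pdia4 and Pdia6 lay between 0.01 and 0.10. Pdia3 measured 668, 726 and 709 CPM in shControl, 717 and 725 in shMap3k7, 675 and 662 in shChd1, and 673, 647, 672 and 662 in shDouble, with every group inside the range of 647 to 726.

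Neither the sensors nor Xbp1 passed: Ern1 stood at -0.18 ± 0.11, Eif2ak3 at 0.19 ± 0.30, Atf6 at 0.18 ± 0.13 and Xbp1 at -0.21 ± 0.16. Xbp1 measured 48.8, 68.0 and 69.1 CPM in shControl, 49.2 and 58.2 in shMap3k7, 76.8 and 63.3 in shChd1, and 51.6, 48.2, 53.0 and 46.2 in shDouble, with overlapping ranges between shControl and shMap3k7. In the ERAD group the adaptor Sel1l stood at -0.32 ± 0.11 (adjusted p = 0.0746), and Herpud1, Syvn1, Edem1 and Derl1 between -0.12 and 0.10. Edem1, which hands glycoproteins to degradation, measured 95.7, 116 and 106 CPM in shControl, 112 and 105 in shMap3k7, 120.0 and 111 in shChd1, and 103, 102, 98.7 and 96.7 in shDouble, so that shControl spanned the shMap3k7 values.

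The number of calls in shMap3k7 changed with the libraries that entered the fit. When the fit held only the 5 libraries compared, 0 of the 40 genes were called (14 had an unadjusted p under 0.05), without either shMap3k7 library 1 was called, and without shControl replicate 1 or 2, or either shChd1 library, 7 were.

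**Figure D3:**
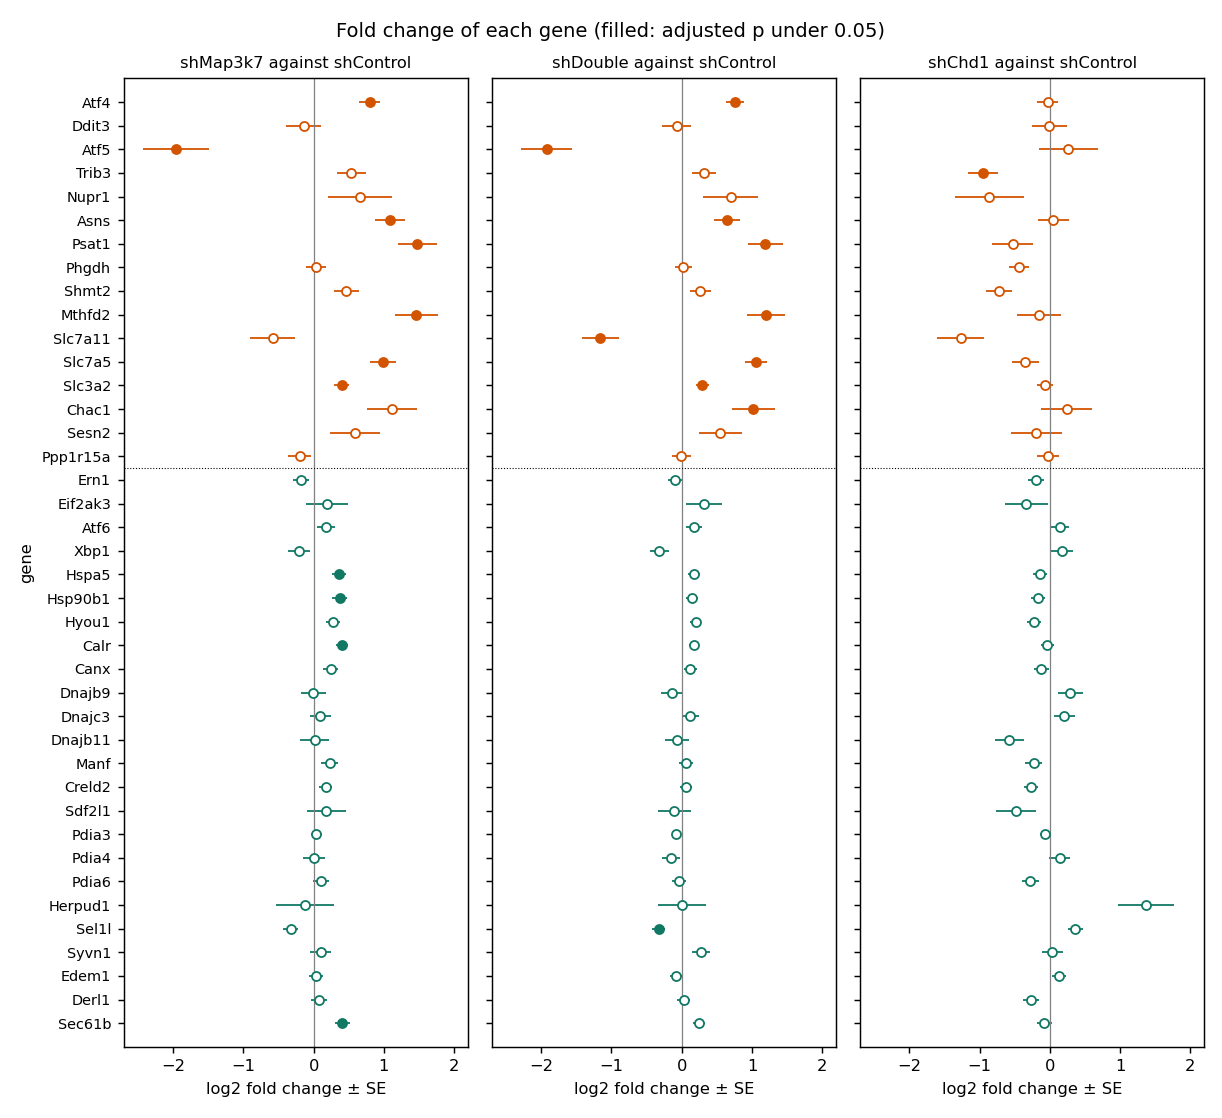
Log2 fold change of each gene against shControl (points) with its SE (bars) in shMap3k7, shDouble and shChd1. Orange points are the ATF4 arm and green points the ER arm, filled where the adjusted p was under 0.05. The ATF4 arm spreads from -1.96 to 1.48 in shMap3k7, while the ER arm lies between -0.32 and 0.41.

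With both hairpins present (shDouble against shControl) the called genes of the ATF4 arm were again mostly higher, and none of the ER chaperones passed. The call list held 10 of the 40 genes, 7 higher and 3 lower, where 23.8% of all genes were called (10.2% higher and 13.6% lower). The count over both arms was thus close to the share over all genes. By arm, the calls were 7 higher and 2 lower of 16 in the ATF4 arm, and 0 higher and 1 lower of 24 in the ER arm. Higher were Slc7a5 (1.06 ± 0.16 on the log2 scale, adjusted p = 0.00162), Atf4 (0.75 ± 0.13, adjusted p = 0.00269), Psat1 (1.19 ± 0.25), Mthfd2 (1.20 ± 0.27), Asns (0.64 ± 0.18), Slc3a2 (0.29 ± 0.09) and Chac1 (1.02 ± 0.31, adjusted p = 0.0366), all in the ATF4 arm. Lower were Atf5 (-1.92 ± 0.36), Slc7a11 (-1.16 ± 0.26) and, from the ER arm, Sel1l (-0.33 ± 0.09). The controls are the same libraries as in the first comparison, so these results are not independent of it.

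Chac1 measured 4.68, 3.42 and 9.02 CPM in shControl, 14.6 and 10.3 in shMap3k7, 5.85 and 7.65 in shChd1, and 12.9, 12.9, 11.6 and 8.85 in shDouble. Its lowest shDouble value lay under the highest control value, and the call was kept in 9 of 18 alternatives. Atf4 and Slc7a5 were called in shDouble in 18 of 18, and Slc3a2 in 4.

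Slc7a11, which encodes the cystine transporter subunit of system xc-, fell in shDouble, and its promoter window carries the ATF4 element on both strands. It measured 26.7, 22.5 and 37.7 CPM in shControl, 14.0 and 24.6 in shMap3k7, 13.1 and 10.9 in shChd1, and 12.7, 10.8, 18.3 and 9.87 in shDouble. All shDouble libraries and both shChd1 libraries lay below all controls, while shMap3k7 clone 7 lay within them. The shDouble difference had an adjusted p of 0.0109, and those of shMap3k7 (-0.58 ± 0.32) and shChd1 (-1.27 ± 0.33, adjusted p = 0.0637) did not pass.

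Sel1l, the scaffold of the HRD1 ubiquitin ligase complex, measured 104, 115 and 94.4 CPM in shControl, 87.7 and 79.2 in shMap3k7, 129 and 139 in shChd1, and 84.9, 86.8, 78.3 and 82.8 in shDouble. Libraries of the Map3k7 clones lay below every control and the shChd1 libraries above every control. Its shDouble call (adjusted p = 0.0227) was kept in 13 of 18 alternatives.

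The ER chaperones were close to control in shDouble: of 11 chaperones and co-chaperones, edgeR called 0 (2 had an unadjusted p under 0.05), and their median log2 fold change was 0.12. Hspa5 stood at 0.17 ± 0.08, Hsp90b1 at 0.15 ± 0.09, Calr at 0.17 ± 0.07 and Sec61b at 0.24 ± 0.09. The count over both arms was 6 without shControl replicate 2 or shDouble replicate 3, and 2 (Atf4 and Slc7a5) when counts were summed per line.

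**Figure D4:**
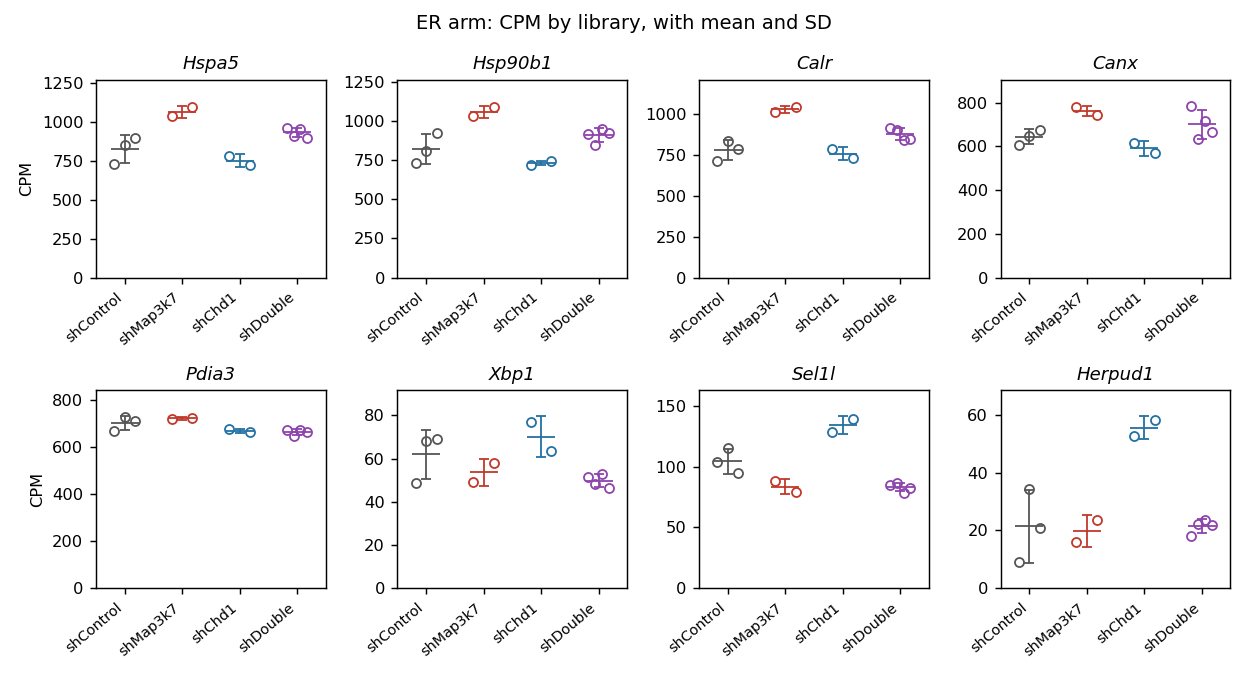
TMM-scaled CPM of 8 genes of the ER arm in each library (open circles), with the mean (horizontal line) and SD (error bar) of each group, on linear axes that start at 0. Hspa5, Hsp90b1 and Calr are highest in shMap3k7, Pdia3 is level, Sel1l is lower in the libraries of the Map3k7 clones, and Herpud1 is highest in shChd1.

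Across the arms, the 6 libraries of the Map3k7 clones lay wholly above the other 5 for 10 of the 40 genes and wholly below for 2, where 12.1% and 12.8% of all genes did so. The 10 were Atf4, Asns, Psat1, Mthfd2, Slc7a5 and Slc3a2 of the ATF4 arm (6 of 16) and Hspa5, Hyou1, Calr and Sec61b of the ER arm (4 of 24). The 2 below were Atf5 and Sel1l. Hyou1, a large ER chaperone and exchange factor, measured 234, 257 and 250.3 CPM in shControl, 301 and 298 in shMap3k7, 224 and 199 in shChd1, and 302, 299, 266 and 268 in shDouble.

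Over the ATF4 arm the median log2 fold change in shMap3k7 was 0.57, and over the ER arm it was 0.10, against -0.01 over all genes tested. The corresponding medians were 0.43 and 0.04 for shDouble, then -0.17 and -0.10 for shChd1. Leaving out the chromosome 19 genes (Psat1 and Slc3a2) gave 0.57 in shMap3k7 and 0.43 in shDouble for the ATF4 arm. Psat1 lay above the arm's median and Slc3a2 below it in both comparisons, so leaving out both could not move it. The arm's mean log2 fold change went from 0.42 to 0.35 in shMap3k7 and from 0.30 to 0.24 in shDouble. Within the ATF4 arm the synthesis enzymes had the highest median in shMap3k7 (1.09), followed by the effectors (0.59), the transcription factors and regulators (0.54) and the transporters (0.40). Within the ER arm the chaperones stood at 0.23, the ERAD and translocon genes at 0.06, the isomerases at 0.04 and the sensors with Xbp1 at -0.00.

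Library by library, the median departure of the ATF4 arm from the control mean was -0.08, -0.32 and 0.32 in shControl, 0.61 and 0.61 in shMap3k7, -0.17 and -0.16 in shChd1, and 0.51, 0.47, 0.39 and 0.16 in shDouble. For the ER arm it was -0.08, 0.05 and 0.09 in shControl, 0.22 and 0.11 in shMap3k7, -0.06 and -0.12 in shChd1, and 0.10, 0.07, 0.03 and 0.04 in shDouble. On this scale the ATF4 arm exceeded the ER arm by 0.39 and 0.50 in shMap3k7 and by 0.40, 0.40, 0.36 and 0.13 in shDouble. In shControl the difference was 0.00, -0.37 and 0.24, so shDouble replicate 4 fell within the controls and the other 5 libraries of the Map3k7 clones did not. The controls differed from each other in the ATF4 arm by as much as shMap3k7 differed from the control mean.

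**Figure D5:**
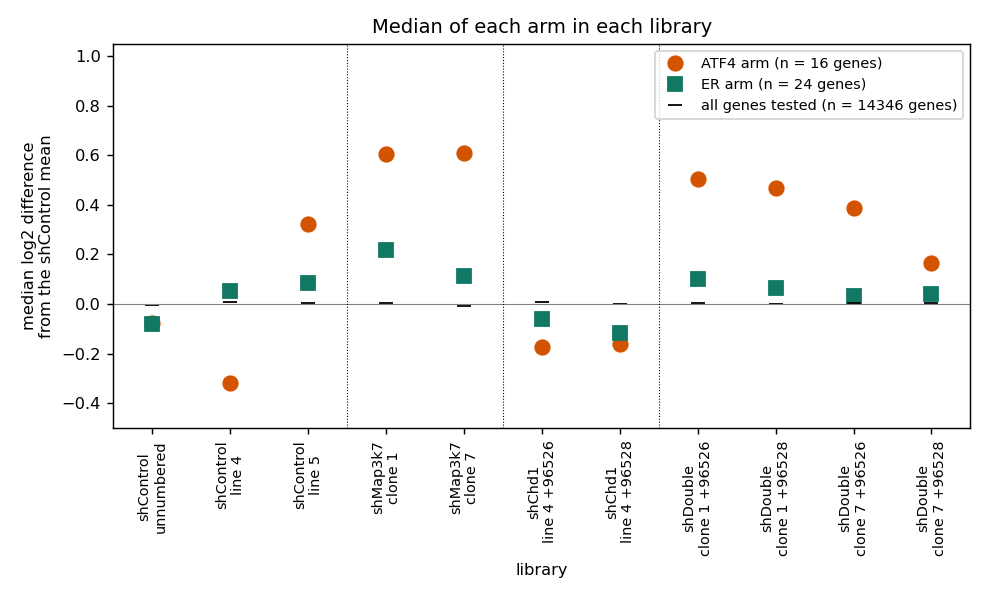
Median log2 difference from the shControl mean in each library for the 16 genes of the ATF4 arm (circles), the 24 genes of the ER arm (squares) and all 14346 genes tested (dashes). The ATF4 arm stands at 0.61 in both shMap3k7 libraries and falls to 0.16 in shDouble replicate 4, and the shControl libraries run from -0.32 to 0.32.

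In shChd1 against shControl 1 of the 40 was called, Trib3, lower, where 2.91% of all genes were called (2.24% lower), and 11 of the 40 had an unadjusted p under 0.05. Trib3 measured 44.5, 25.4 and 45.0 CPM in shControl, 52.4 and 58.7 in shMap3k7, 21.0 and 18.7 in shChd1, and 48.6, 48.2, 49.2 and 45.0 in shDouble. Its log2 fold change was -0.95 ± 0.21 (adjusted p = 0.047). Control clone 4 (replicate 2), which shares its line with both shChd1 libraries, was itself the lowest control, and with the line as a replicate block the difference was -0.36 (adjusted p = 0.209).

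Herpud1, an ER membrane protein of ERAD whose window carries the ATF4 element, had the highest shChd1 difference of the 40, 1.37 ± 0.40 (adjusted p = 0.0776), and was picked out after its values were seen. It measured 8.93, 34.4 and 21.0 CPM in shControl, 15.9 and 23.6 in shMap3k7, 52.8 and 58.4 in shChd1, and 18.3, 22.3, 23.8 and 22.0 in shDouble. Both shChd1 libraries were above all others, and control clone 4 was the highest control. With the line as a replicate block its difference was 0.69 (adjusted p = 0.0807). Without shControl replicate 2, which shares its clone with the shChd1 libraries, 9 of the 40 genes were called in shChd1, 3 higher and 6 lower, and DESeq2 called 6. The share over all genes above belongs to the main fit and not to these 2 fits, so their counts stand without a background.

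Adding a Chd1 hairpin to the Map3k7 clones (shDouble against shMap3k7) gave 0 calls among the 40 genes and 0% among all genes by edgeR, and 0 of the 40 by DESeq2 and by limma. An unadjusted p under 0.05 was reached by 3: Calr (-0.23 ± 0.08), Hsp90b1 (-0.22 ± 0.10) and Asns (-0.45 ± 0.20). Atf4 stood at -0.04 ± 0.14. The interaction of both knockdowns, shDouble less shMap3k7 less the shChd1 difference from shControl, was also called for 0 of the 40 and 0% of all genes by edgeR (4 of the 40 had an unadjusted p under 0.05), and for 0 of the 40 by DESeq2 and limma. Without shControl replicate 2, 4 of the 40 were called, and the 0% over all genes does not apply to that fit.

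Each of the 6 libraries with a Chd1 hairpin could also be compared within its line, that is, with the library of the same clone that carried a control hairpin in the puromycin vector. These differences share 3 baseline libraries and were counted after the values were seen, so they are given as a description. The ER arm was lower in all 6, with medians of -0.08 and -0.15 for control clone 4. Clone 1 gave -0.04 and -0.12 and clone 7 gave -0.09 and -0.15. Of its 24 genes, 10 were lower in every one of the 6 differences (Hspa5, Hsp90b1, Calr, Dnajb11, Manf, Creld2, Sdf2l1, Pdia3, Pdia4 and Pdia6), where 3.4% of all genes were. Their size was small: Hspa5 differed by -0.28 to -0.11 and Pdia3 by -0.15 to -0.09 on the log2 scale.

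In the ATF4 arm 4 of 16 genes were lower in all 6 within-line differences (Trib3, Shmt2, Slc7a11 and Slc3a2). Slc7a11 had the widest, -1.31 to -0.15, and Trib3 ranged from -0.44 to -0.11. Ppp1r15a was higher in all 6, by 0.06 to 0.30, where 3.48% of all genes were. The arm's medians were 0.04 and 0.17 for control clone 4, while clone 1 gave -0.08 and -0.07 and clone 7 gave -0.08 and -0.28.

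Where both groups carried Chd1 hairpins (shDouble against shChd1), 20 of the 40 genes were called, 16 higher and 4 lower, where 44.8% of all genes were called (22.6% higher and 22.2% lower). The ATF4 arm gave 10 higher and 1 lower of 16. Slc7a5 (1.41 ± 0.19), Psat1 (1.72 ± 0.30), Mthfd2 (1.35 ± 0.31), Trib3 (1.27 ± 0.21), Shmt2 (0.99 ± 0.18), Atf4 (0.79 ± 0.15) and Nupr1 (1.56 ± 0.48) were among the higher genes, and Atf5 (-2.18 ± 0.40) was lower. Shmt2 measured 175, 119 and 199.6 CPM in shControl, 208 and 246 in shMap3k7, 97.7 and 102 in shChd1, and 198, 202, 208 and 183 in shDouble, so shDouble lay within or just above the controls and shChd1 lay below all of them.

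The ER arm gave 6 higher and 3 lower of 24 in that comparison, where 22.6% of all genes were higher and 22.2% lower. Its called share was smaller than the 44.8% over all genes. Hyou1 (0.43 ± 0.09), Creld2 (0.33 ± 0.09), Sec61b (0.33 ± 0.10), Hspa5 (0.31 ± 0.09), Hsp90b1 (0.31 ± 0.10) and Derl1 (0.30 ± 0.11), a channel component of ERAD, were higher in shDouble. Sel1l (-0.69 ± 0.10), Herpud1 (-1.36 ± 0.37) and Xbp1 (-0.49 ± 0.15) were lower. Without either shChd1 library 9 of the 40 were called. Chd1 constructs were in control clone 4 on one side and in the Map3k7 clones on the other, so hairpin and clone cannot be told apart.

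The Map3k7 clones differed from each other in 9 of the 40 genes, 7 higher and 2 lower in clone 1 than in clone 7, where 27.6% of all genes were called (15.4% higher and 12.2% lower). The 9 of 40 are a smaller share than that. Each clone was represented by 3 libraries, which are not independent clones. Sesn2 had the widest called difference (0.94 ± 0.11, adjusted p = 0.000504). It measured 25.0, 26.6 and 32.8 CPM in shControl, 27.8 and 21.5 in shChd1, 54.0, 51.1 and 58.8 in clone 1, and 30.9, 28.1 and 26.4 in clone 7, so clone 1 was above every other library and clone 7 was within the controls.

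Nupr1 (0.79 ± 0.12) was likewise higher in clone 1, at 60.1, 66.1 and 75.4 CPM against 44.3, 40.1 and 32.3 in clone 7, with 29.8, 15.4 and 53.9 in shControl and 18.7 and 17.6 in shChd1. Clone 1 lay above the controls and clone 7 among them. Sdf2l1, an ER co-chaperone (0.71 ± 0.09), measured 28.4, 23.2 and 22.1 CPM in clone 1 and 16.5, 14.0 and 14.3 in clone 7, on either side of the controls at 19.5, 17.5 and 22.4 except for 1 library of clone 1. Dnajb11, a BiP partner (0.40 ± 0.06), measured 123, 120.1 and 117 CPM in clone 1 and 96.3, 91.3 and 84.7 in clone 7, with 118, 83.4 and 124 in shControl.

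Syvn1, the HRD1 ubiquitin ligase (0.34 ± 0.07), Atf5 (0.51 ± 0.15) and Ppp1r15a (0.27 ± 0.08) were also higher in clone 1. Atf4 (-0.23 ± 0.07) and the PERK gene Eif2ak3 (-0.34 ± 0.11) were lower. The called rises of the ATF4 arm against shControl were seen in the libraries of both clones, and for Psat1, Mthfd2, Asns, Slc7a5 and Slc3a2 no difference between the clones was called.

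Other genes of the pathway came from further lists. Of 24 further ATF4 targets, 6 were higher and 2 lower in shMap3k7, and 3 higher and 2 lower in shDouble. The background over all genes is again 11.9% and 23.8%, and the 5 of 24 called in shDouble are a smaller share than that. Aldh18a1, the proline synthesis enzyme on chromosome 19, stood at 1.51 ± 0.18 in shMap3k7 and 1.27 ± 0.16 in shDouble, and Slc7a1, a cationic amino acid transporter, at 0.87 ± 0.16 and 0.98 ± 0.14. Jdp2, which encodes a repressor of the AP-1 family, fell by 1.54 ± 0.21 and by 1.64 ± 0.17 in the same comparisons. In shMap3k7 this list gave 2 calls without replicate 1 of that group.

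Of 20 cytosolic aminoacyl-tRNA synthetases, the enzymes that charge tRNAs, 8 were higher and 0 lower in shMap3k7, and 9 and 0 in shDouble, with medians of 0.41 and 0.28. Over all genes 4.86% were higher in shMap3k7 and 10.2% in shDouble. Aars (0.78 ± 0.12 and 0.67 ± 0.10), Gars (0.78 ± 0.13 and 0.55 ± 0.11) and Mars (0.55 ± 0.11 and 0.38 ± 0.09) rose in both. The shMap3k7 count was 1 without replicate 2 of that group and 3 without replicate 1, and the shDouble count was 2 without shControl replicate 2. In shChd1 none of the 20 was called by edgeR (5 had an unadjusted p under 0.05).

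Of 13 genes for eIF2 kinases, eIF2 and eIF2B subunits and phosphatase adaptors, 3 were higher in shMap3k7: Ppp1r15b (0.47 ± 0.10), Eif2s2 (0.65 ± 0.16) and Eif2b3 (0.41 ± 0.12). The Eif2b3 call was kept in 1 of 18 alternatives, those of Ppp1r15b and Eif2s2 in 14 and 13. In shDouble 3 were higher and 2 lower. Over all genes 4.86% were higher and 7.08% lower in shMap3k7, and 10.2% and 13.6% in shDouble. Of 14 heat shock genes, which act mainly outside the ER, 4 were higher and 0 lower in shMap3k7 and in shDouble, with the mitochondrial chaperonin Hspd1 at 0.68 ± 0.13 and 0.58 ± 0.11. In shChd1, where 2.24% of all genes were lower, 3 were lower and 0 higher: Hspa1b (-1.64 ± 0.33), Hsph1 (-0.91 ± 0.20) and Hspa8 (-0.53 ± 0.12). These 3 calls were kept in 7, 6 and 5 of 19 alternatives. Control clone 4, the line of both shChd1 libraries, was the lowest control for each, with Hspa1b at 40.4 CPM against 70.7 and 79.8 in the other controls and 22.1 and 18.6 in shChd1.

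Of 21 further ER folding genes, 0 were higher and 4 lower in shMap3k7, and 1 was higher and 6 lower in shDouble. Over all genes 4.86% were higher and 7.08% lower in shMap3k7, and 10.2% and 13.6% in shDouble. Serpinh1, the collagen chaperone, fell by 0.91 ± 0.14 and by 0.97 ± 0.12, Fkbp14 fell by 1.83 ± 0.39 and by 1.56 ± 0.29, and Fkbp11 fell by 0.70 ± 0.15 and by 0.78 ± 0.12. The fibroblast markers fell in the same libraries (3 of 5 tested were lower in shMap3k7 and 5 of 5 in shDouble), and their part in this was not tested. The folding count was 1 without shMap3k7 replicate 1 and 0 without replicate 2. Of 23 further ERAD and translocon genes 2 were higher in shMap3k7, the segregase Vcp (0.39 ± 0.07) and the conjugating enzyme Ube2j1 (0.33 ± 0.08, called in 10 of 18 alternatives), and 3 were higher and 1 lower in shDouble, in both comparisons a smaller share than over all genes. Of 6 ER-bound transcription factors and their proteases 1 was lower in shMap3k7 and in shDouble: Creb3l1, known from collagen-secreting cells, was at 18.9, 8.20 and 3.19 CPM in shControl, 7.09 and 3.22 in shChd1, and at 0.0724 CPM or less in every library of the Map3k7 clones.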

How the data were processed

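Oligo(dT)-selected RNA of 11 WFU3 libraries was sequenced. Per the submitters' processing notes the authors used Bowtie2, RSEM 1.3.1 and limma on GRCm38, and the deposited raw table holds expected counts. The counting annotation is not given in the sources used here, nor is its strand setting. A second deposited table holds log2 values, which equalled log2 of (count + 0.5) less 1 constant per library to within 5.02e-09 for 17963 genes. Expected counts were rounded (5 of the 40 genes had values that were not whole, and RSEM divides reads shared by similar genes) and analysed in R 4.3.3 with edgeR 4.0.16: filterByExpr (minimum count 10, minimum total 15), TMM factors, a mean for each group fitted to the 11 libraries, and quasi-likelihood F-tests with Benjamini-Hochberg adjustment across 14346 genes. CPM are TMM-scaled. The clone comparison was fitted with a mean per line and terms for the Chd1 hairpin.

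Clone 1 deviations in shMap3k7 and shDouble correlated across genes (r = 0.571), and the labels tie libraries to lines, so a fit with the line as replicate block was run where groups share lines. Alternatives were DESeq2 1.42.0, limma 3.58.1 on the deposited log2 values, other size factors, no filter, fewer libraries and counts summed per line. The test was also run on simulated data in which 200 of 14346 genes were changed. There it recovered 42% of 2-fold changes in shMap3k7 and 0% of 1.5-fold ones (55.5% and 1.5% in shDouble, 42.5% and 0% in shChd1). More genes were called in the data (1712 in shMap3k7, 3413 in shDouble and 417 in shChd1), so these shares hold for the simulation only. Coordinates came from GENCODE M21 and RefSeq (GRCm38). The 40 genes and all lists were chosen with earlier results of these data known. Values per library are given for Atf4, for up to 8 called genes per comparison by smallest adjusted p and for the most abundant gene of each role group; the values of Chac1, Herpud1, Ddit3 and Hsp90b1 and the within-line counts were added after the values were seen.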

Additional observations from a re-analysis of the deposited data

Results flagged for a closer look

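Among the 4 shDouble libraries, Asns was at 153 CPM in replicate 3 (clone 7 with construct 96526), against 112 to 118 in the other 3. Creld2, an ER-resident stress protein, was at 44.2 CPM in shDouble replicate 1 (clone 1 with construct 96526), against 39.8 to 40.1 in the other 3. In both cases 1 library stood apart from the rest of its group by most of the group's range. Such a gap is expected by chance in about 1 of 20 groups, and 2 of 40 genes showed it.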

How the results depend on the processing

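The calls followed through the alternatives were those against shControl and between the clones, and Psat1, Sel1l, Slc7a5 and Trib3 of the 20 in shDouble against shChd1; none of these reversed. The shMap3k7 count of 11 was 7 with no filter on low counts, 0 with only the libraries compared and 1 (Atf4) with counts summed per line, and 1 to 13 when 1 library was left out. The shDouble count of 10 was 2 with counts summed per line and 6 to 12 with 1 library left out. The shChd1 count of 1 was 0 with upper-quartile factors, 6 with DESeq2, 4 with no filter, 0 with only the libraries compared, 0 with the line as replicate block, 0 with counts summed per line and 0 to 9 with 1 library left out; Trib3 was called in 5 of 19 alternatives. The block changed no other call. Leaving out 1 library gave 9 to 23 calls for shDouble against shChd1 (20), 0 to 4 for the interaction (0) and 5 to 10 between the clones (9, with 5 without shDouble replicate 1). The shares over all genes given above belong to the main fits, and none is set beside these counts. The cause of these moves was not tested. The ATF4 arm median ran from 0.37 to 0.69 in shMap3k7 and 0.31 to 0.56 in shDouble, the ER arm median from 0.08 to 0.16 and 0.02 to 0.08. Over 18 alternatives, 128 of 198 calls in shMap3k7 and 144 of 180 in shDouble were kept. Differences of 1.5-fold were seldom recovered in the simulation, in which 200 genes were changed. In the data smaller ones were called: the 4 ER arm genes higher in shMap3k7 had log2 fold changes of at most 0.41.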
